A study of Mus musculus with 16 samples.

Results

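The 10 genes described here are Pecam1, Cdh5, Kdr, Flt1, Tek, Tie1, Angpt2, Esm1, Plvap and Apln, a named set of endothelial and tumor angiogenesis genes that was listed by symbol and not by any measured value. All 10 were found among the 21959 genes of the count tables, and all 10 passed the filter on low counts that left 13968 genes for testing. RNA was sequenced from metastatic tumor tissue in the liver of 16 mice, 4 in each of 4 groups. All mice were male wild-type C57BL/6 animals injected in the hemispleen at 6 weeks of age with MC38 cells, a mouse colon adenocarcinoma line. The control mice received PBS. The SB525334 group received the TGF-β receptor I (ALK5) inhibitor SB525334 at 20 mg/kg by oral gavage every day, the KN046 group received the antibody KN046, which binds PD-L1 and CTLA-4, at 10 mg/kg into the peritoneum 2 times a week, and the combination group received both. A single tumor line was used, the age at sampling was not given in the sources used here, and each library is whole tissue, so that tumor cells, vessels, leukocytes and any liver tissue taken along are mixed in 1 value. In such tissue, fewer endothelial cells and less RNA of a gene per endothelial cell cannot be told apart.

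Tumors draw on blood vessels lined by endothelial cells. Pecam1 (CD31) and Cdh5 (VE-cadherin) join these cells to each other. Kdr (VEGFR2) is the main receptor through which VEGF-A drives sprouting, and Flt1 (VEGFR1) binds VEGF-A tightly with weak signaling of its own. Tek (Tie2) is the receptor of the angiopoietins, Tie1 is its partner receptor, and Angpt2 is a ligand released by endothelial cells of remodeling vessels that can block Tek. Esm1 (endocan) and Apln (apelin) mark the tip cells that lead new sprouts, and Plvap forms the diaphragms of fenestrated capillaries, including those of tumors. TGF-β also acts on endothelial and mural cells, and the ALK1 branch of that family shares the coreceptor endoglin.

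The members lie on 6 chromosomes. In GRCm39, Cdh5 (ENSMUSG00000031871) spans positions 104828231 to 104871143 of chromosome 8 on the plus strand, Kdr (ENSMUSG00000062960) spans 76093487 to 76139884 of chromosome 5 on the minus strand, and Apln (ENSMUSG00000037010) spans 47114019 to 47123775 of the X chromosome on the minus strand. Angpt2 (ENSMUSG00000031465), from 18739202 to 18791603 of chromosome 8 on the minus strand, lies inside Mcph1, which runs on the other strand and shares 3387 of its exon bases, 70.7% of the exon bases of Angpt2. Plvap shares 21.7% of its exon bases with Gtpbp3 on the other strand. The strand setting of the counting was not given in the sources used here, so reads in these shared stretches cannot be assigned to 1 gene with certainty. Mcph1 was not called (edgeR adjusted p = 0.94 with SB525334) and stood at 42.1 to 48.8 CPM (counts per 1000000 counts of the library, after scaling) in control mice and 37.2 to 55.2 in SB525334 mice.

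The ETS factors ERG and FLI1 are known regulators of endothelial genes, and their core motif GGAAG was searched on both strands in the 250 bases before the start of the canonical transcript of 7 members, all but Cdh5, Angpt2 and Plvap. It occurred in 5 of the 7 windows, those of Kdr, Flt1, Tek, Tie1 and Apln, against 63.8% of the windows of 21579 protein-coding genes. The SMAD-binding letters CAGAC occurred before Pecam1 only, against 41.4% of all windows. The hypoxia response core ACGTG occurred before Tie1 only, against 17% of all windows, and the AP-1 motif TGACTCA before none of the 7, against 4.02%. Windows are shown for a VEGF receptor and a secreted ligand that behaved differently across the mice below, read 5′ to 3′ on the gene's strand with the ETS core in capitals as GGAAG or its reverse complement CTTCC.
Kdr promoter (chr5:76139119-76139368, - strand): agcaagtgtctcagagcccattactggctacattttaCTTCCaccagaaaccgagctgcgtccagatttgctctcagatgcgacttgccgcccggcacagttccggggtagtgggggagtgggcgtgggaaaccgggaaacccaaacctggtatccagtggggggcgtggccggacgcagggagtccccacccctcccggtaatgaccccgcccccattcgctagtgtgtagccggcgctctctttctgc
Apln promoter (chrX:47123776-47124025, - strand): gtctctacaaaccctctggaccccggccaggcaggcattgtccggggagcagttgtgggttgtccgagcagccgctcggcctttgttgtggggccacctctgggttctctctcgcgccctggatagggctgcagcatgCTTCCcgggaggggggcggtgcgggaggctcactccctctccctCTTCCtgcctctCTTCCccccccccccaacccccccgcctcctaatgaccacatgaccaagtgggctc
A match describes letters only and does not show that a factor bound there.

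The libraries held 18368994 to 23877131 gene counts. The 4 control libraries fell into a pair of mice 1 and 2 and a pair of mice 3 and 4, each with very similar counts. Counts of the same gene differed by a median chi-square of 1.25 between control mice 1 and 2 and of 0.956 between control mice 3 and 4, and by at least 2.82 in the other 22 within-group pairs. More genes differed within both pairs than sampling noise gives, 24.8% and 18.1% past its 95% point. The labels describe 4 separate control mice, and they were kept as 4. Whether each pair came from 1 animal was not tested. If it did, fits that count the 2 libraries of a pair as separate mice would give p-values that are too small. The counts of members called against control are also given with each pair merged into 1 library, and with either pair left out, because the pairs differed in the very genes described here. The labels do not say that replicates came from separate batches or litters, so p-values measure only the spread between these libraries.

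Per kilobase of exon, the levels in control mice ran from Cdh5 at 11.2 ± 4.79 CPM per kb (SD, n = 4), through Plvap at 9.43 ± 0.172 and Esm1 at 8.55 ± 2.13, to Tek at 1.01 ± 0.605. Apln (3.94 ± 0.692), Pecam1 (3.48 ± 1.34), Flt1 (3.07 ± 1.03), Kdr (2.99 ± 1.99), Tie1 (2.94 ± 1.29) and Angpt2 (2.67 ± 0.546) lay between them. From Apln to Angpt2 the ranges of neighbors in this order overlapped, whereas Apln stayed below Esm1 and Angpt2 above Tek in all control mice. The exon length used joins the exons of all annotated transcripts, including bases that Angpt2 and Plvap share with genes on the other strand. The order between genes is thus approximate. Each member was detected in all 16 mice.

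**Figure D1:**
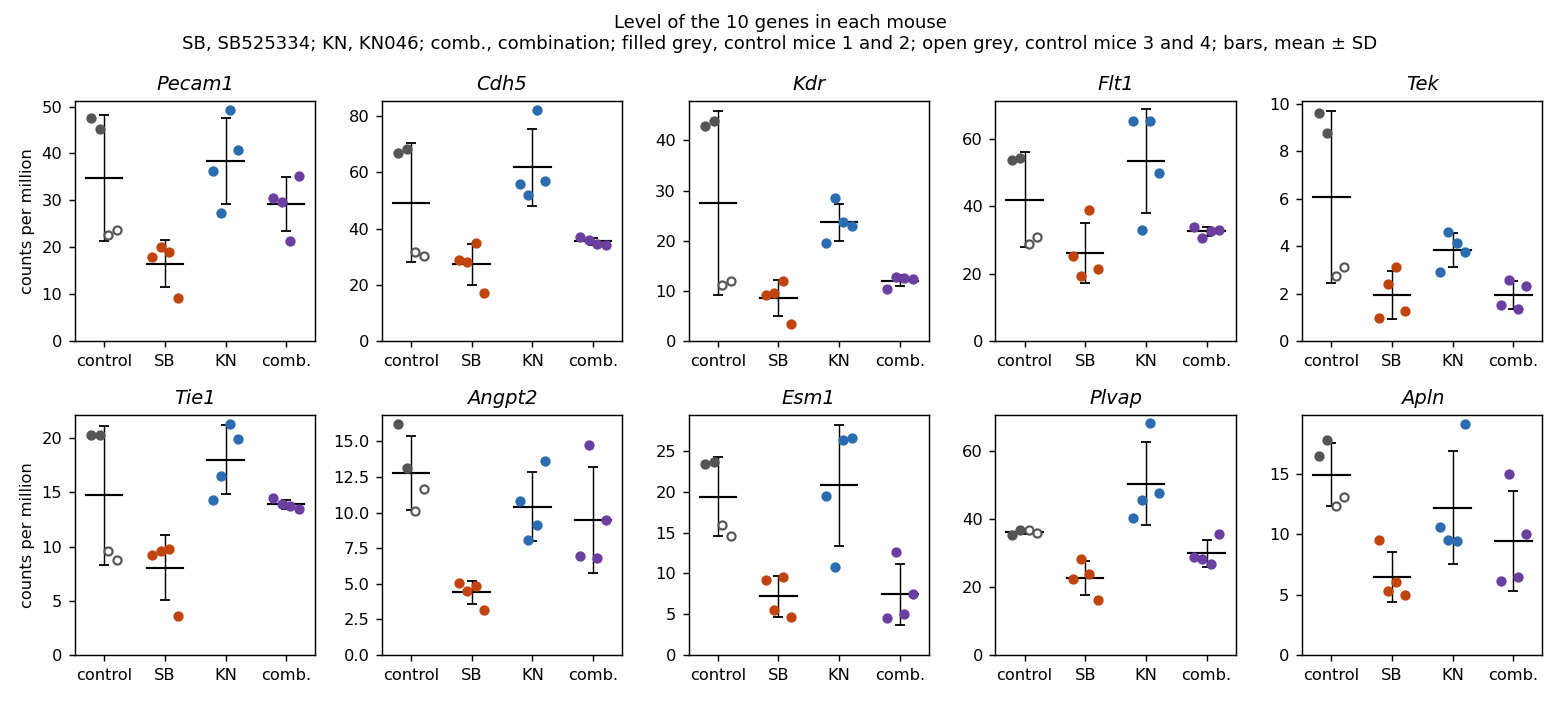
Level of each of the 10 genes (vertical axes, CPM) in each of the 16 mice, with 1 point per mouse and the group mean ± SD as bars; filled grey points are control mice 1 and 2 and open grey points control mice 3 and 4. Cdh5, Kdr, Tek and Tie1 split the control mice into a high and a low pair, whereas Plvap sits between 35.4 and 36.8 in all 4 control mice and Angpt2 in the SB525334 mice stays at or below 5.02, under every control mouse.

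SB525334 alone was compared with control to ask how the vessel genes stood when the TGF-β receptor was inhibited. All 10 members had lower mean levels with SB525334, from 31.2% of the control mean for Kdr to 62.4% for Flt1 and Plvap, and 8 passed the test as lower (edgeR quasi-likelihood test, adjusted p under 0.05 over all 13968 genes). Over all tested genes, 9.2% were called lower in this comparison. The median log2 fold change of the 10 members was -1.14, and that of all tested genes was 6e-04. In 5 members, Pecam1, Angpt2, Esm1, Plvap and Apln, the 4 SB525334 mice lay below the 4 control mice, an arrangement found for 13.3% of all genes.

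Among the junction genes, Pecam1 read 47.5, 45.2, 22.6 and 23.7 CPM in control mice 1 to 4 and 17.9, 20.0, 19.0 and 9.22 CPM in the SB525334 mice. Cdh5 read 66.7, 68.2, 31.9 and 30.4 CPM in the control mice and 28.9, 28.1, 34.9 and 17.3 CPM with SB525334. The SB525334 values of Cdh5 thus overlapped those of control mice 3 and 4 and lay far below those of control mice 1 and 2. Pecam1 fell by 1.07 ± 0.28 (SE) on the log2 scale (edgeR adjusted p = 0.0166) and Cdh5 fell by 0.85 ± 0.26 (edgeR adjusted p = 0.0448). The Cdh5 call held in 4 of the 16 fits that left out 1 mouse.

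Of Kdr and Flt1, Kdr had the wider control spread. It stood at 42.9 and 43.8 CPM in control mice 1 and 2, at 11.2 and 12.02 CPM in control mice 3 and 4, and at 9.22, 9.67, 11.96 and 3.40 CPM in the SB525334 mice. Its log2 fold change was -1.68 ± 0.42 (edgeR adjusted p = 0.0138). Flt1, at 41.9 ± 14.1 CPM in control and 26.2 ± 8.79 CPM with SB525334, had a log2 difference of -0.68 ± 0.25 that did not pass the test (edgeR adjusted p = 0.125).

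In the angiopoietin axis, the ligand separated the groups more cleanly than its receptors. Angpt2 read 16.2, 13.2, 10.1 and 11.7 CPM in the control mice and 5.02, 4.498, 4.86 and 3.19 CPM with SB525334, with no overlap. It fell by 1.54 ± 0.26 on the log2 scale, and its adjusted p of 0.00028 was the lowest of the 10 members (edgeR). Tek, a receptor of low level, read 9.62, 8.76, 2.74 and 3.14 CPM in control and 0.994, 2.39, 3.14 and 1.25 CPM with SB525334, and fell by 1.64 ± 0.42 (edgeR adjusted p = 0.0152). Tie1, at 14.7 ± 6.43 CPM in control and 8.04 ± 2.99 CPM with SB525334, had a difference of -0.87 ± 0.30 that did not pass (edgeR adjusted p = 0.0842).

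The tip cell and tumor vessel genes were lower in every SB525334 mouse than in any control mouse. Esm1 read 23.4, 23.7, 15.9 and 14.6 CPM in control and 9.22, 5.45, 9.51 and 4.61 CPM with SB525334. Apln read 16.4, 17.8, 12.3 and 13.1 CPM in control and 9.49, 5.33, 6.02 and 4.95 CPM with SB525334. Plvap was nearly level across the control mice, at 35.4, 36.7, 36.8 and 36.0 CPM, and read 22.3, 28.1, 23.8 and 16.2 CPM with SB525334. The log2 fold changes were -1.43 ± 0.35 for Esm1, -1.21 ± 0.30 for Apln and -0.68 ± 0.17 for Plvap (edgeR adjusted p = 0.00955, 0.0109 and 0.00976).

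**Figure D2:**
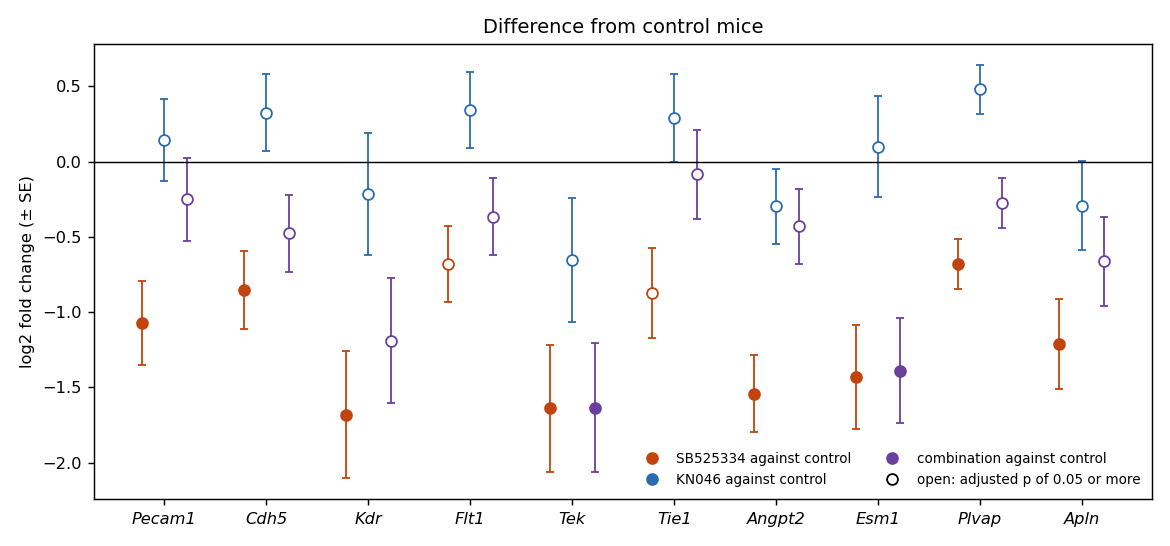
Log2 fold change ± SE (vertical axis) of each gene against the 4 control mice for SB525334, KN046 and the combination; filled points have an edgeR adjusted p under 0.05. The SB525334 points lie below 0 for all 10 genes, 8 of them filled, whereas no KN046 point is filled and the combination has 2 filled points, Tek at -1.63 and Esm1 at -1.39.

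How much of the difference rested on 1 pair of control mice varied by gene. The mean of control mice 1 and 2 was 3.73 times that of control mice 3 and 4 for Kdr, 3.13 times for Tek, 2.21 times for Tie1, 2.17 times for Cdh5, 2.00 times for Pecam1 and 1.82 times for Flt1. It was 1.54 times for Esm1, 1.35 times for both Angpt2 and Apln and 0.991 times for Plvap. This ratio exceeded 1.5 in 7 of the 10 members and in 13.1% of all genes, whose median ratio was 1.0003.

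Without control mice 1 and 2, the number of members called lower with SB525334 was 1, Angpt2, at a log2 fold change of -1.31 (edgeR adjusted p = 0.00929). The only controls in that fit were the 2 similar libraries of mice 3 and 4. If these came from 1 animal, its p-values are too small. The same comparison gave -0.44 for Kdr and -0.19 for Cdh5, with adjusted p of 0.629 and 0.81 (edgeR). Esm1 (-1.08), Apln (-0.98) and Plvap (-0.69) kept most of their difference but did not pass with 2 control mice (edgeR adjusted p = 0.186, 0.159 and 0.0625). Without control mice 3 and 4, all 10 were called, with Kdr at -2.33, in a fit whose only controls were the 2 similar libraries of mice 1 and 2. With each control pair merged, 3 were called, namely Kdr, Tek and Angpt2, beside 1020 of 14241 genes called in either direction. A fit of the 8 control and SB525334 mice alone called 4, namely Angpt2, Esm1, Plvap and Apln, beside 1611 of 13626 genes. Leaving out control mouse 1 or control mouse 2 alone brought the count to the same 4 genes. For fits without a control pair or without 1 mouse, here and below, the calls over all genes were not counted.

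**Figure D3:**
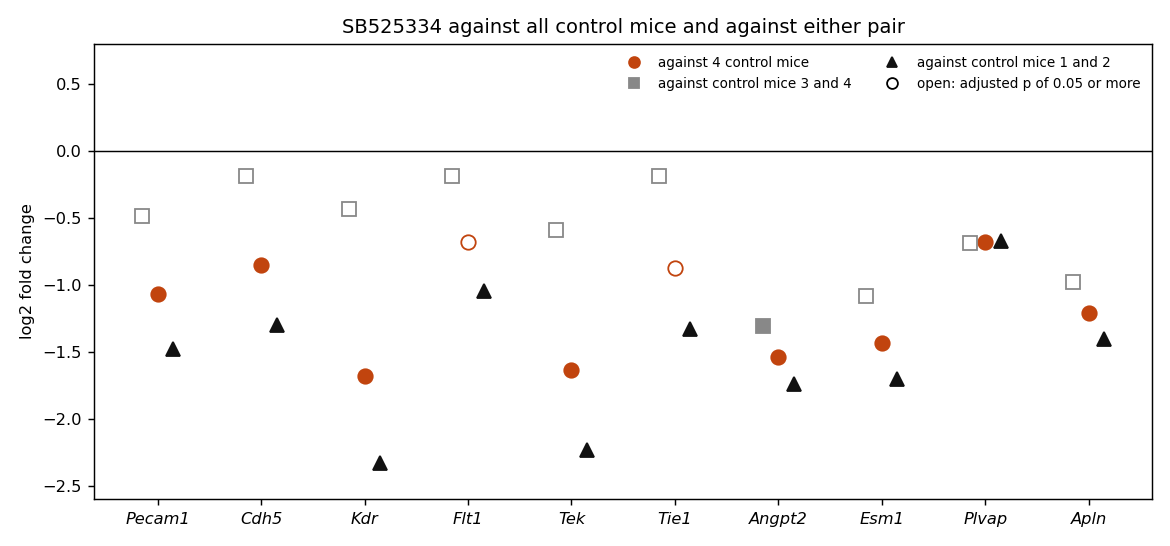
Log2 fold change of SB525334 (vertical axis) for each gene against all 4 control mice (circles), against control mice 3 and 4 only (squares) and against control mice 1 and 2 only (triangles); filled symbols have an edgeR adjusted p under 0.05. The 3 symbols are far apart for Kdr (-0.44 to -2.33) and Tek (-0.59 to -2.23) and nearly coincide for Plvap (-0.67 to -0.69), and Angpt2 has filled symbols in all 3. Squares and triangles each rest on 2 similar control libraries.

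KN046 alone was compared with control to ask the same of checkpoint blockade. No member passed the test (edgeR), 1 had an unadjusted p under 0.05 and DESeq2 also called 0, against 3.89% of all genes called in either direction. The median log2 fold change of the members was 0.12, with 6 above and 4 below 0. Plvap came nearest, at 40.3, 45.7, 68.2 and 47.7 CPM in the KN046 mice, all above the 4 control mice, a separation upward found for 4.94% of all genes. Its log2 fold change was 0.48 ± 0.16 (edgeR adjusted p = 0.0978). The control split reached this comparison too. Without control mice 1 and 2, Cdh5 stood 0.99 higher with KN046 on the log2 scale (edgeR adjusted p = 0.035) and was the 1 member called. Without control mice 3 and 4 it stood at -0.13. The Cdh5 call again rests on the 2 similar libraries of control mice 3 and 4. With the pairs merged, 0 of all 14241 genes were called (edgeR), so the 0 members called there say nothing about these genes in particular.

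The combination was compared with control as the full regimen. All 10 members had a lower fitted level, with a median log2 fold change of -0.45, but 2 were called lower (edgeR), Tek and Esm1, beside 9.72% of all genes. Tek read 1.54, 2.59, 1.36 and 2.31 CPM in the combination mice and fell by 1.63 ± 0.43 (edgeR adjusted p = 0.0147), a call lost without control mouse 1, control mouse 2 or combination mouse 3. Esm1 read 4.52, 12.7, 5.02 and 7.45 CPM and fell by 1.39 ± 0.35 (edgeR adjusted p = 0.011). These were also the 2 members whose combination mice all lay below the control mice, as 12.1% of all genes did. Kdr, at 12.1 ± 1.16 CPM, had a log2 difference of -1.19 ± 0.42 that did not pass (edgeR adjusted p = 0.0856), and Angpt2 one of -0.43 ± 0.25 (edgeR adjusted p = 0.328). Against control mice 3 and 4 alone 0 were called, with Esm1 at -1.05 (edgeR adjusted p = 0.205) and Tek at -0.59 (edgeR adjusted p = 0.658). Against control mice 1 and 2 alone 4 were called, namely Cdh5, Kdr, Tek and Esm1. With the pairs merged 1 was called, Tek, beside 1194 of 14241 genes called in either direction.

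The comparison of the combination with KN046 uses no control mouse and asks what adding SB525334 did under checkpoint blockade. All 10 members were again below 0, with a median of -0.73, and 3 were called lower (edgeR), while 14.5% of all genes were. Esm1 read 19.6, 10.7, 26.3 and 26.6 CPM in the KN046 mice and fell by 1.49 ± 0.35 with the combination (edgeR adjusted p = 0.00547). Plvap, 50.5 ± 12.2 CPM with KN046 and 29.9 ± 3.95 CPM with the combination, fell by 0.75 ± 0.17 (edgeR adjusted p = 0.0032). Both were called whichever single mouse was left out.

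Cdh5 was the third member called lower. It read 56.0, 51.9, 82.2 and 57.0 CPM in the KN046 mice and 37.1, 36.1, 34.4 and 34.1 CPM in the combination mice, and fell by 0.80 ± 0.26 (edgeR adjusted p = 0.0324). The call was lost in 5 of the 16 fits that left out 1 mouse, with a highest adjusted p of 0.103 without KN046 mouse 3 (edgeR). Kdr, Tek, Cdh5 and Plvap were the 4 members whose combination mice all lay below the KN046 mice, as did 12.4% of all genes. Kdr read 19.6, 28.5, 23.8 and 22.9 CPM with KN046 and 10.3, 12.8, 12.7 and 12.4 CPM with the combination, yet its difference of -0.98 ± 0.41 did not pass in the fit of all 16 mice (edgeR adjusted p = 0.0938). The spread in that fit includes the split of the control mice. With either control pair left out, 6 members were called, Cdh5, Kdr, Flt1, Tek, Esm1 and Plvap. The spread in those fits includes the small spread within the control pair that stays. From the 8 KN046 and combination mice alone, 5 were called, beside 1852 of 13421 genes called in either direction.

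Angpt2 was the member in which the combination and SB525334 alone parted. It read 6.93, 14.7, 6.82 and 9.47 CPM in the combination mice, each above the highest SB525334 mouse at 5.02 CPM, and 10.8, 8.07, 9.11 and 13.6 CPM in the KN046 mice. It rose by 1.11 ± 0.26 on the log2 scale from SB525334 to the combination (edgeR adjusted p = 0.0146), and was the 1 member called higher, beside 0.53% of all genes. The call was lost without combination mouse 2 (edgeR adjusted p = 0.0749) and without SB525334 mouse 4. A fit of the 8 mice alone called 0 members, beside 291 of 13114 genes called in either direction. Pecam1 and Tie1 likewise lay higher in the 4 combination mice than in the 4 SB525334 mice, as did 2.43% of all genes, with log2 differences of 0.82 ± 0.28 and 0.79 ± 0.30 that did not pass (edgeR adjusted p = 0.175 and 0.276).

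The interaction term, which asks whether the SB525334 difference was the same with and without KN046, was 1.41 ± 0.35 for Angpt2 (edgeR adjusted p = 0.0303): the log2 difference was -1.54 without KN046 and -0.13 ± 0.25 with it. No other member was called, and 4.13% of all genes were. Across the other fits of this term the adjusted p of Angpt2 ran from 0.00467 to 0.104, and it missed the threshold without control mice 1 and 2 (0.104), with the control pairs merged (0.094), with replicate number as a block (0.052) and in 7 of the 16 fits that left out 1 mouse (edgeR).

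Expressed relative to Cdh5, which cancels a change shared by all endothelial genes, members parted from each other. The log2 ratio of Tie1 to Cdh5 lay between -1.38 and -1.32 in the 4 combination mice and at or below -1.51 in the other 12 mice, including both control pairs, which were alike in this ratio (-1.80 to -1.72). The ratio of Angpt2 to Cdh5 averaged -1.86 ± 0.434 in control mice and -1.97 ± 0.519 in combination mice, and -2.61 ± 0.176 and -2.57 ± 0.473 in SB525334 and KN046 mice. It was -2.04 and -2.37 in control mice 1 and 2 and -1.66 and -1.38 in control mice 3 and 4. The combination mice ran from -2.42 to -1.29 and the SB525334 mice from -2.845 to -2.44. The ratio of Tek averaged -3.14 ± 0.332 in control and -4.23 ± 0.454 with the combination. It was -2.79 and -2.96 in control mice 1 and 2 and -3.54 and -3.28 in control mice 3 and 4. The ratio of Plvap averaged -0.34 in control and between -0.30 and -0.25 in the treated groups. Its control mean hid a split between control mice 1 and 2, at -0.92 and -0.89, and control mice 3 and 4, at 0.21 and 0.25. These ratios were chosen as a description and were not tested.

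**Figure D4:**
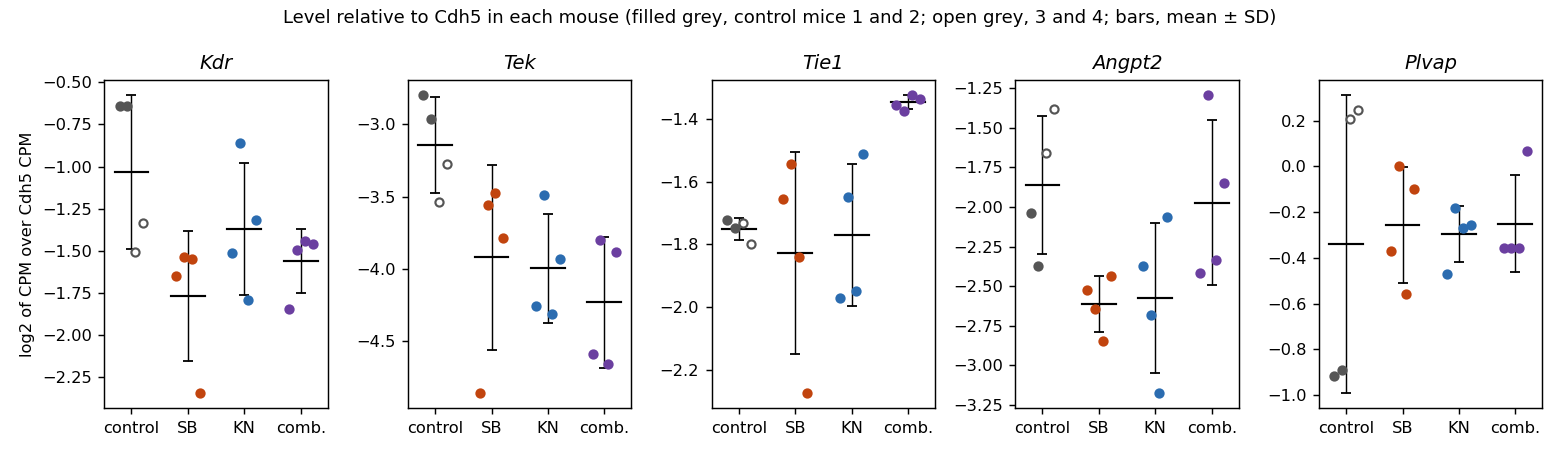
Log2 of the level of 5 genes over that of Cdh5 (vertical axes) in each mouse, with the group mean ± SD as bars; filled grey points are control mice 1 and 2, open grey points 3 and 4. Tie1 over Cdh5 is tightly grouped at -1.38 to -1.32 in the combination mice, above all 12 others, and Plvap over Cdh5 splits the control mice around a mean of -0.34.

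Across all 16 mice the 45 pairs of members correlated with Pearson's r from 0.535 (Flt1 and Apln) to 0.939 (Pecam1 and Tie1), with a median of 0.749. These mice share treatments and the control pairs, so the values describe the libraries and carry no test. After the group means were taken out, in the 12 treated mice alone, the median fell to 0.422 and the highest value, 0.901, joined Angpt2 and Apln. Angpt2 and Esm1 reached 0.847 there and Esm1 and Apln 0.762, whereas Plvap and Apln stood at 0.026. Over log2(CPM + 1) in the 16 mice and 12827 genes, the genes most like Cdh5 were Adgrf5 (0.98), Abcc9 (0.956), Flt4 (0.952), Nid2 (0.943) and Hecw2 (0.936). Those most like Angpt2 were Zfp36 (0.862), Dll4 (0.842), Fam174b (0.842), Adm (0.823) and Atp6v1d (0.811).

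Other genes of the VEGF, angiopoietin and apelin pathways were counted from a fixed list, of which 15 were tested. Counts of this and the following lists stand beside 9.2% of all genes called lower with SB525334 and 9.72% with the combination. In either direction, 1339 and 1548 of 13968 genes were called. With SB525334, 6 of this list were called lower and 0 higher (edgeR). Adm, which encodes adrenomedullin, fell by 2.86 ± 0.58 on the log2 scale, from 5.96 ± 0.408 to 0.821 ± 0.509 CPM, and Vegfa fell by 0.65 ± 0.18, from 309 ± 29.3 to 197 ± 34.4 CPM (edgeR adjusted p = 0.0023 and 0.0218). Ptprb, the phosphatase that restrains Tek, fell by 2.42 ± 0.52, Flt4 (VEGFR3) fell by 2.13 ± 0.46 and Svep1, a ligand of Tie1, fell by 1.70 ± 0.33 (edgeR adjusted p = 0.00429, 0.00429 and 0.00144). Ptprb ranged from 9.69 to 55.2 CPM among the control mice and Flt4 from 8.62 to 36.4, and neither passed without control mice 1 and 2 (edgeR adjusted p = 0.266 and 0.258), whereas Adm did (0.0234). Vegfa did not pass there either (edgeR adjusted p = 0.239), and it passed in 12 of the 16 fits that left out 1 mouse. With the pairs merged, Ptprb and Flt4 passed (edgeR adjusted p = 0.00531 and 0.00821) and Vegfa did not (0.114). The setting without control mice 1 and 2 left 2 of this list called. Its only controls were the 2 similar libraries of mice 3 and 4.

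With the combination, 3 genes of that list were called lower and 1 higher. Ptprb fell by 2.11 ± 0.51, Flt4 fell by 1.64 ± 0.45 and Nrp1, a VEGF coreceptor, fell by 0.88 ± 0.18 (edgeR adjusted p = 0.0101, 0.0239 and 0.00228). Ramp2, a subunit of the adrenomedullin receptor, rose by 0.81 ± 0.19 (edgeR adjusted p = 0.00745), a call lost without control mice 1 and 2 (0.0928) and with the pairs merged (0.0693). Vegfa, at 241 ± 20.4 CPM, did not pass (edgeR adjusted p = 0.248). Vegfb (31.8 ± 5.53 CPM in control), Vegfc (9.14 ± 0.926), Pgf (6.48 to 8.27) and the apelin receptor Aplnr (1.24 ± 0.394) passed in no comparison with control. Angpt1, the activating Tek ligand, was too low to be tested, at 0.284 to 0.919 CPM in control mice. With the control pairs merged, the combination still had 3 lower calls in this list, and without control mice 1 and 2 it had 0. Against KN046, with no control mouse compared, 3 genes of the list were called lower and 1 higher. Ramp2 was the higher one, and Ptprb and Flt4 were among the lower (edgeR adjusted p = 0.000184, 0.00666 and 0.00877). Each of these calls held in all 27 other fits.

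Among 20 further pan-endothelial genes, 5 were called lower with SB525334 and 5 lower and 1 higher with the combination (edgeR). Vwf, the clotting factor stored in endothelial cells, fell by 1.49 ± 0.34 with SB525334 and fell by 2.81 ± 0.37 under the combination (edgeR adjusted p = 0.00593 and 1.54e-05). The surface receptor Clec14a fell by 2.52 ± 0.60 and, under the combination, fell by 2.64 ± 0.62 (edgeR adjusted p = 0.00863 and 0.00624). Endoglin (Eng) fell by 1.14 ± 0.22 and, under the combination, fell by 1.08 ± 0.22 (edgeR adjusted p = 0.0014 and 0.00195). Robo4 was also called lower in both (edgeR adjusted p = 0.0193 and 0.0215). Cldn5, a tight junction gene, went the other way with the combination and rose by 1.15 ± 0.31 (edgeR adjusted p = 0.0196), while its difference with SB525334 was -0.68 ± 0.32 and did not pass (edgeR adjusted p = 0.255). Emcn fell by 1.05 ± 0.27 with the combination (edgeR adjusted p = 0.0119). Cd34, by far the most abundant gene of this list at 492 ± 71.8 CPM in control, stood at 581 ± 47.4 CPM with SB525334 and passed in neither comparison. The summed level of the 20 genes, in which Cd34 has the most weight, was 732 to 774 CPM in control mice. It was 711 to 849 CPM with SB525334 and 803 to 923 CPM with the combination. The median log2 fold changes of the list were -0.69 and -0.43. Without control mice 1 and 2, no gene of the list was called lower with SB525334 and 1, Vwf, with the combination. The Cldn5 call was lost there (edgeR adjusted p = 0.0674), without control mice 3 and 4 (0.102) and with the pairs merged (0.135). The Emcn call was lost in the first and the last of these settings (0.0797 and 0.0673). The combination against KN046 compares no control mouse, and there 8 genes of the list were called lower and 2 higher. Over all 13968 genes, 3396 were called in either direction. Cldn5 was called higher and Vwf, Clec14a and Robo4 lower (edgeR adjusted p = 0.00649, 4.51e-06, 0.00711 and 0.00115). Each was called in all 27 other fits.

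Of 18 genes of the Notch and ALK1 pathways, which restrain sprouting, 4 were called lower with SB525334. Dll4, the tip cell Notch ligand, fell by 0.92 ± 0.23, the ALK1 target Id3 fell by 1.37 ± 0.29 and the inhibitory Smad7 fell by 0.55 ± 0.15 (edgeR adjusted p = 0.0124, 0.00387 and 0.0286). Bmp10, a circulating ALK1 ligand, was the other gene called, at 0.35 to 1.52 CPM in control and 0.0431 to 0.358 CPM with SB525334. Dll4 with the combination stood at -0.30 ± 0.23 (edgeR adjusted p = 0.476). With the combination 5 were called lower and 1 higher, and Id3 fell by 1.82 ± 0.30 and Smad6 fell by 0.93 ± 0.20 (edgeR adjusted p = 0.000246 and 0.00271). Bmp10 had 0 counts in all 4 combination mice, and the related ligand Gdf2 was called lower too, at 2.49 to 3.80 CPM in control and 0 to 0.331 CPM with the combination. Both are made largely in liver or heart. The ALK1 receptor Acvrl1, at 15.98 ± 1.43 CPM in control and 14.2 ± 2.43 CPM with SB525334, passed in neither. The SB525334 count of this list was 2 without control mice 1 and 2 and 1 with the control pairs merged.

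Over all tested genes, 9.2% were called lower with SB525334 and 9.72% with the combination. Of 16 tip cell and vessel basement membrane genes, 1 was called lower with SB525334, the laminin linker Nid1 (log2 fold change -1.10 ± 0.22, edgeR adjusted p = 0.00196), and 3 with the combination. There Col15a1 fell by 2.03 ± 0.28, Lama4 fell by 0.94 ± 0.30 and Nid1 fell by 0.82 ± 0.22 (edgeR adjusted p = 3.95e-05, 0.0493 and 0.0184). Without control mice 1 and 2, Lama4 stood at -0.068 and Nid1 at -0.44 with the combination (edgeR adjusted p = 0.961 and 0.445), and neither passed with the pairs merged (0.0716 and 0.0672), whereas Col15a1 passed in both settings. Nid1 with SB525334 did not pass without control mice 1 and 2 either (edgeR adjusted p = 0.093). Of 7 adhesion and venous genes, 2 were lower with SB525334, Lrg1 and the low-level P-selectin gene Selp, and 1 with the combination. Lrg1, also a product of liver cells, had log2 fold changes of -2.56 ± 0.44 and -4.54 ± 0.51 (edgeR adjusted p = 0.000533 and 3.71e-06). Of 10 mural cell genes, 2 were lower in each comparison, Rgs5 with Abcc9 under SB525334 and Rgs5 with Ndufa4l2 under the combination. Rgs5, a pericyte gene, had log2 fold changes of -0.82 ± 0.21 and -1.36 ± 0.22 (edgeR adjusted p = 0.014 and 0.000131), whereas Pdgfrb, at 215 ± 13.7 CPM in control, passed in neither. With the control pairs merged, 0 mural genes were called with SB525334, Rgs5 and Abcc9 included. Against KN046, with no control mouse compared, the combination had 4 lower and 2 higher calls among the 16 tip cell and basement membrane genes. Among the mural genes it had 2 lower and 1 higher. Col15a1 and Rgs5 were among the lower (edgeR adjusted p = 0.00156 and 1.66e-06), in all 27 other fits too.

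Genes of the liver's own cells moved in the same comparisons, and their part in the results above was not tested. All 19 hepatocyte genes were called lower with SB525334 and with the combination (edgeR), and their summed level ran from 15105 to 17475 CPM in the control mice. The sum was 397 to 2026 CPM in SB525334 mice, 9463 to 19288 CPM in KN046 mice and 58.9 to 69.6 CPM in combination mice. Alb averaged 8185 ± 268 CPM in control and 9.52 ± 1.88 CPM with the combination. Kupffer cell genes were lower in 5 of 6 in both comparisons, with sums of 162 to 332 CPM in control, 9.95 to 25.1 with SB525334 and 1.80 to 13.1 with the combination. The hepatocyte sum was lowest in the combination mice. The summed level of the 10 members was lowest in the SB525334 mice, at 84.9 to 161.8 CPM, and stood at 161.6 to 196 CPM in the combination mice. The member sum was 332 and 332 CPM in control mice 1 and 2 and 182 and 184 CPM in control mice 3 and 4. The Kupffer cell sum split the same way, at 314 and 332 against 162 and 164 CPM. The hepatocyte sum was 15105 and 15493 against 17243 and 17475 CPM.

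**Figure D5:**
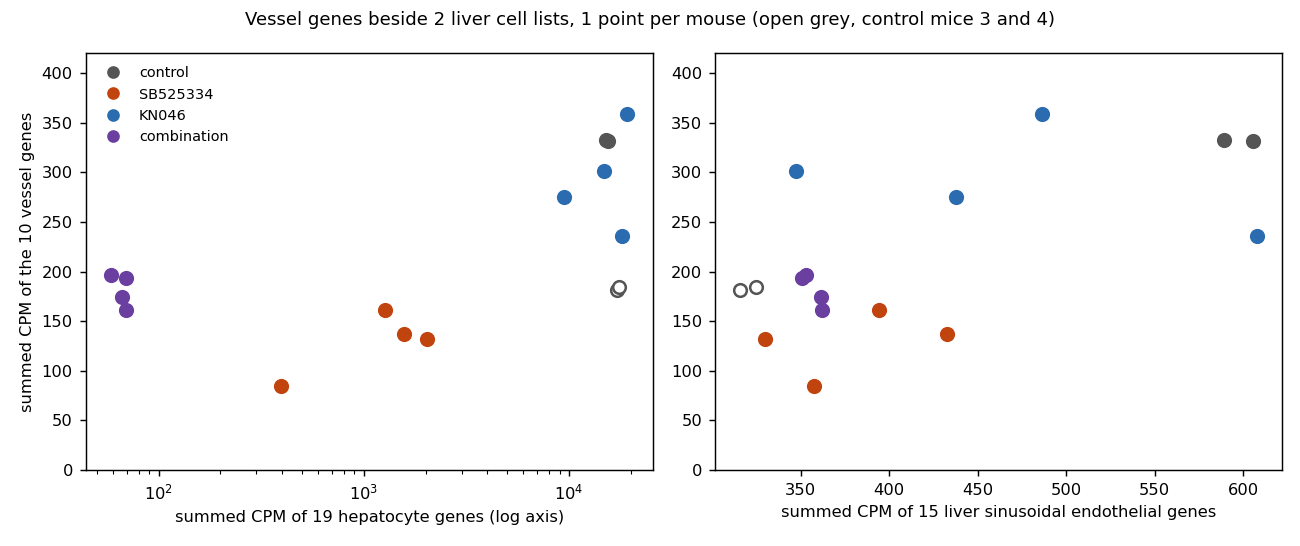
Summed level of the 10 vessel genes (vertical axis, CPM) against the summed level of 19 hepatocyte genes (left, log axis) and of 15 liver sinusoidal endothelial genes (right), 1 point per mouse; open grey points are control mice 3 and 4. The combination mice have hepatocyte sums of 58.9 to 69.6 CPM and vessel sums of 161.6 to 196 CPM, 3 of them above every SB525334 mouse. Control mice 1 and 2 lie above mice 3 and 4 on the vessel and the sinusoidal sum.

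The endothelial cells of liver sinusoids are a possible source of the members, as several members are expressed there too. Of 14 tested sinusoidal genes, 10 were called lower with SB525334 and 8 with the combination (edgeR). Stab2, a scavenger receptor of these cells, fell by 3.29 ± 0.45 with SB525334 and stood at -1.04 ± 0.40 with the combination (edgeR adjusted p = 5.82e-05 and 0.126), and Lyve1 was called lower in both (edgeR adjusted p = 0.000112 and 4.9e-08), from a mean of 12.6 CPM in control to 2.35 CPM and 0.146 CPM. Clec4g and Oit3 were called lower in both as well, from 3.66 to 14.3 CPM and 3.60 to 17.0 CPM in control to at most 0.283 and 0.308 CPM in the combination mice. Clec1b was called lower in both, and the transcription factor gene Gata4 fell from 5.22 to 7.52 CPM in control to 1.64 to 1.85 CPM with SB525334 and at most 0.0552 CPM with the combination. The summed level of 15 sinusoidal genes was 589 and 606 CPM in control mice 1 and 2 and 316 and 324 CPM in control mice 3 and 4. It was 330 to 433 CPM in the SB525334 mice and 351 to 362 CPM in the combination mice. A sum gives most weight to the most abundant genes of a list and did not follow the typical gene here. The median log2 fold change of the 14 tested genes was -2.33 with SB525334 and -2.44 with the combination. Without control mice 1 and 2, 6 sinusoidal genes were called lower with SB525334 and 7 with the combination.

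Leukocyte genes also followed the control split, with sums of 473 and 476 CPM in control mice 1 and 2 and 323 and 333 CPM in control mice 3 and 4, and 267 to 362 CPM with SB525334. Of 10 leukocyte genes, 2 were lower with SB525334 and 0 with the combination, and the pan-leukocyte gene Ptprc averaged 63.9 ± 26.4 CPM in control and 40.0 ± 6.60 CPM with SB525334. Of 6 lymphatic genes, 3 were lower with SB525334, Prox1, Lyve1 and Flt4, and these with Reln made 4 with the combination. Epithelial genes were lower in 2 of 7 with SB525334 and in 5 of 7 with the combination, and platelet genes in 1 and 0 of 5. Over all tested genes, 9.2% and 9.72% were called lower in these comparisons. With control mice 1 and 2 left out, the SB525334 counts were 1 leukocyte, 2 lymphatic and 2 epithelial genes and 5 Kupffer cell genes, and the combination counts 3 lymphatic, 3 epithelial and 4 Kupffer cell genes. The part of these cells in the levels of the 10 members was not tested.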

How the data were processed

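Total RNA from tumor tissue was sequenced on an Illumina instrument. Per the methods, the authors used Cutadapt 2.7 for trimming, HISAT2 2.2.1 for alignment to GRCm39 and HTSeq 2.0.4 for counting per gene. The raw counts the authors deposited were used, and the normalized files were not. Counts were tested in R 4.3.3 with edgeR 4.0.16 (quasi-likelihood test, scaled by TMM, genes kept by filterByExpr at a minimum count of 10, 1 fit of 16 mice, Benjamini-Hochberg adjusted p under 0.05). DESeq2 1.42.0, the study's tool, was an alternative. CPM used TMM library sizes. The common biological coefficient of variation was 20.1%. The test was checked on simulated counts. The members and lists were chosen with earlier results of these data known. Members were all named. Of other endothelial, pathway and mural lists, against control, up to 4 called genes with the largest changes, and some key genes whatever their values, were named, with levels in place of fold changes where counts came near 0. Some of the genes named were also given for the combination against KN046. Lists of other cell types were given mainly as counts and sums. The 5 genes most like Cdh5 and Angpt2 were named by Pearson's r. Promoters were read from GRCm39 with GENCODE M39 canonical transcripts, and 3 members' windows are not reported here. Same-numbered mice were not paired. The settings without either control pair were chosen after the data were seen.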

Additional observations from a re-analysis of the deposited data

Results flagged for a closer look

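Among the 40 sets of 4 values that 10 genes and 4 groups give, 4 held a mouse far from the other 3, where chance flags about 1 in 20, or 2.0. Cdh5 in the KN046 group had a highest mouse at 82.2 CPM beside 51.9 to 57.0 in the others. Apln in the KN046 group had a highest mouse at 19.2 CPM, beside 9.44 to 10.6. Kdr in the combination group had a lowest mouse at 10.3 CPM, beside 12.4 to 12.8, and Tie1 in the SB525334 group a lowest mouse at 3.58 CPM, beside 9.18 to 9.77. The lowest SB525334 mouse, mouse 4, was also the lowest of its group for Pecam1, Cdh5, Kdr, Angpt2, Esm1, Plvap and Apln. Its hepatocyte sum, 397 CPM, was the lowest of its group too, and the part of this in its vessel genes was not tested.

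The SB525334 effect on Angpt2 differed with and without KN046, by 1.41 on the log2 scale (edgeR adjusted p = 0.0303). The call held in 16 of 26 other fits and was lost, among others, with replicate number as a block, with the control pairs merged and in 7 of the 16 fits that left out 1 mouse. The difference was -1.54 in mice without KN046 and -0.13 in mice with it, and the 4 combination mice lay between 6.82 and 14.7 CPM against 3.19 to 5.02 CPM with SB525334 alone.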

How the results depend on the processing

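The count of members called depended most on the control mice. Without control mice 1 and 2 it was 1 for SB525334 against control, 1 for KN046 against control, 0 for the combination against control, 6 for the combination against KN046 and 0 for the interaction. Without control mice 3 and 4 it was 6 for the combination against KN046 and 4 for the combination against control. With the control pairs merged it was 3 for SB525334, 1 for the combination and 0 for the interaction. With only the mice compared in the fit it was 4 for SB525334, 5 for the combination against KN046 and 0 for the combination against SB525334. DESeq2 with calls at a 2-fold change and p, not adjusted, under 0.05 gave 1 for the combination against KN046. Leaving out 1 mouse at a time gave 4 to 9 for SB525334, 1 to 3 for the combination, 0 to 1 for the combination against SB525334 and 0 to 1 for the interaction. Calls over all genes were not counted in the fits without a control pair or without 1 mouse. Whether the member counts moved with them was not tested.

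Several differences that did not pass the test changed sign. Without control mice 1 and 2, the combination against control gave log2 values of 0.18 for Cdh5, 0.12 for Flt1, 0.047 for Kdr, 0.33 for Pecam1, 0.60 for Tie1, 0.049 for Dll4 and 0.17 for Stab2. KN046 against control then gave 1.03 for Kdr and 0.39 for Tek, and the interaction -0.62 for Cdh5, -0.55 for Kdr, -0.40 for Tek and -0.19 for Tie1. Without control mice 3 and 4, KN046 against control gave -0.13 for Cdh5, -0.18 for Esm1, -0.019 for Flt1, -0.27 for Pecam1 and -0.17 for Tie1, and the interaction 0.22 for Esm1 and 0.33 for Flt1. The combination against SB525334 for Tek was near 0 throughout, at -0.0037 with DESeq2 and with those thresholds, -0.0041 with DESeq2 size factors, -0.0082 with upper quartile scaling and -0.0038 without control mice 1 and 2. Leaving out 1 mouse moved it from -0.21 to 0.34, and moved Esm1 in that comparison from -0.34 to 0.21. In the same way KN046 against control ran from -0.047 to 0.33 for Esm1, -0.48 to 0.11 for Kdr and -0.024 to 0.34 for Pecam1, and the combination ran from -0.26 to 0.11 for Tie1 against control and from -0.41 to 0.037 for Angpt2 against KN046. The interaction ran from -0.16 to 0.23 for Cdh5, -0.44 to 0.12 for Esm1, -0.22 to 0.23 for Flt1 and -0.20 to 0.11 for Plvap. Why the control mice differed was not tested.

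Same-numbered mice of different groups deviated together in 10 of 24 pairs (correlation over 0.1, range -0.483 to 0.527). Mice of different numbers were not compared in this way, so the values cannot show whether the numbers pair the mice. With replicate number as a block, the count of members called was 8 for SB525334 and 0 for the interaction, where Flt1 stood at 0.031. Tek, the lowest member, had counts in every mouse, from 22 in SB525334 mouse 1 to 220 in control mouse 1. Its level is thus the least precise of the 10 by counting.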
